A study of Komagataella phaffii GS115 with 9 samples.

Results

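A set of 76 genes had higher transcript levels in the robust *P. pastoris* mutant than in its parent at 28 °C, and their levels in the mutant at 37 °C lay close to those at 28 °C. The members were chosen by these measured differences themselves, so the differences are given as a description, and the calls from a fit across all genes that stand beside them are no independent evidence. A gene belonged to the set when the mean of log2(value + 1) was at least 0.7 higher in the mutant at 28 °C than in the parent at 28 °C (the strain difference) and when the means of the mutant at 37 °C and at 28 °C differed by less than 0.4 in either direction (the temperature difference). In addition, all 3 mutant values at 28 °C had to exceed all 3 parent values, and the mean value had to reach 5 in at least 1 group. Of the 5557 features in the table, 5475 carry a locus tag of the 4 numbered chromosomes, and 261 of these had a strain difference of at least 0.7. The number was 233 with values that did not overlap, 231 with a mean of at least 5, and 183 after 3 stretches of neighbouring tags (2 on chromosome 3 and 1 on chromosome 4) were left out by the rule. The limit on the temperature difference left the 76 members. Inside the stretches left out, 30 more tags met all other conditions.

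The RNA came from fermentation cultures collected at 60 h. The paper describes growth on glycerol and then feeding with methanol at 28 °C. It does not describe the cultures at 37 °C, so when and for how long cells were at 37 °C is not known here. Parent_28 is the parent (WT) induced at 28 °C, G14_28 is the robust mutant at 28 °C, and G14_37 is the robust mutant at 37 °C, with 3 libraries each, 9 in all. Both strains carry a lipase gene under the methanol-inducible *AOX1* promoter. The mutant, obtained by adaptive laboratory evolution, tolerates oxidative and thermal stress, and the differences between strains are those of this single evolved strain. No library of the parent at 37 °C was analysed here, and the response of these genes to 37 °C in the parent is not known. The study describes the replicates as biological. In RNA from whole cultures, a changed share of cells in some state and a changed amount of RNA per cell cannot be told apart.

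*P. pastoris* is a methylotrophic yeast. It oxidizes methanol to formaldehyde in peroxisomes, a reaction that also yields hydrogen peroxide, and it needs catalase and other antioxidant enzymes to remove it. Cultivation at 37 °C is above the usual range of this yeast and calls on chaperones and other heat-shock proteins, while an evolved strain can also carry changes in expression that are present at any temperature. The table names its genes by locus tags only, and the reference table at hand lists 5040 genes of strain GS115 under other tags, with 0 tags in common. The members therefore have no gene name or function here, and the roles of single members cannot be given. Only 2 members are printed by their tag, the one with the largest strain difference and the one with the highest level in G14_28. The others are called by their chromosome and their rank, where rank 1 is the largest strain difference of the 76.

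The values behave as FPKM, that is, reads per base of gene and per sequencing depth of the library. Reads and lengths could be recovered from the steps between values for all 5516 features with any reads, where a read number within 0.05 of a whole number counted as whole. Recovered reads ranged from 13131111 to 13998351 in the 6 libraries at 28 °C and from 13925953 to 15945465 in G14_37. The recovered lengths of the 76 members were all multiples of 3, as were 99.4% of those of the 5368 tags with a mean of at least 5, and they are called coding lengths. Across genes, Pearson correlations of log2(value + 1) between replicates were 0.992 to 0.995 at 28 °C. At 37 °C, G14_37 replicates 2 and 3 had a correlation of 0.993, and G14_37 replicate 1 had 0.986 and 0.988 with them. The recovered reads of replicate 1 also differed most from those of the other replicates at 37 °C, as the chi-square statistic over its degrees of freedom was 49.8 and 48.5, against 3.84 to 8.55 for the other pairs of replicates. For this reason, some results at 37 °C are also given without that library, and the others include it.

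The members stood 1.87-fold higher in G14_28 than in Parent_28 at the median, with a range from 1.64-fold to 3.72-fold. On the log2 scale, the median strain difference was 0.88 with quartiles of 0.79 and 1.001. Most members were close to the limit of the rule, as 21 had a strain difference under 0.8 and 36 one between 0.8 and 1, while 11 lay between 1 and 1.2, 5 between 1.2 and 1.5, and 3 above 1.5. The median over all tags with a mean of at least 5 was -0.038. By limma with Benjamini-Hochberg adjustment over all tested genes, 19 members had an adjusted p under 0.05 and a log2 difference above 1, where 1.76% of the tested genes were called higher in this way. All 76 had an adjusted p under 0.05 with a higher level in G14_28, against 29.6% of tested genes, and all 76 had values that did not overlap, against 32.2%. A log2 difference of at least 0.7 was found for 4.85% of tested genes. The rule used this contrast, so the counts describe the choice. The standard error of the log2 difference had a median of 0.060 over the members and ranged from 0.042 to 0.25.

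**Figure D1:**
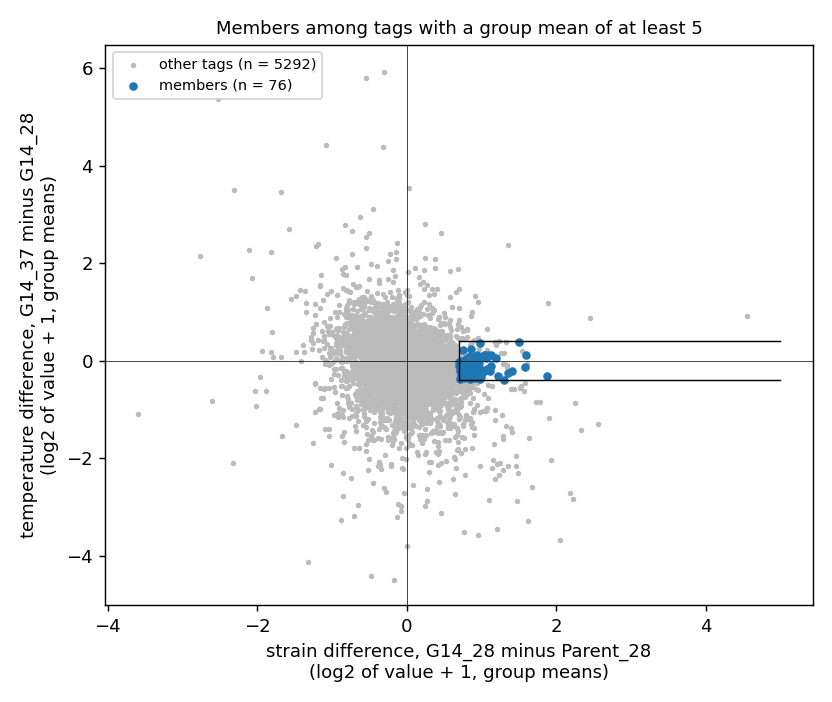
Strain difference (horizontal axis) against temperature difference (vertical axis), both as differences of group means of log2(value + 1), for the 5368 tags with a group mean of at least 5, with the 76 members in blue and the limits of the rule as lines. The members fill the part of the box next to its left edge, with 57 of 76 below 0 on the vertical axis (0 of 76 when the recovered total of each library is used for scaling), and grey points inside the box are the 30 tags of the stretches that were left out.

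At 37 °C, the members were 1.72-fold higher than in Parent_28 at the median, with a range from 1.28-fold to 3.98-fold. The comparison of G14_37 with Parent_28 is the sum of the other contrasts and shares its libraries with them, and the rule leaves little room in it. In 75 of the 76 members, all G14_37 values exceeded all Parent_28 values, where 34.9% of tested genes did so. An adjusted p under 0.05 from limma with a log2 difference above 1 was found for 18 members, against 3.83% of tested genes, and for 59 members when the recovered total of each library was used for scaling, where 12.3% of tested genes were called. All 76 had an adjusted p under 0.05 with a higher level in G14_37, against 33.1%, and 43 had a log2 difference of at least 0.7, against 8.66%. The exception in overlap was the member of rank 20, on chromosome 1, which has the lowest G14_28 level of the set. Its values were 5.92, 4.90 and 9.20 in Parent_28, 15.0, 15.4 and 11.5 in G14_28, and 11.9, 12.3 and 8.47 in G14_37, so that G14_37 replicate 3 fell below Parent_28 replicate 3. These values rest on 32 to 117 reads per library.

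**Figure D2:**
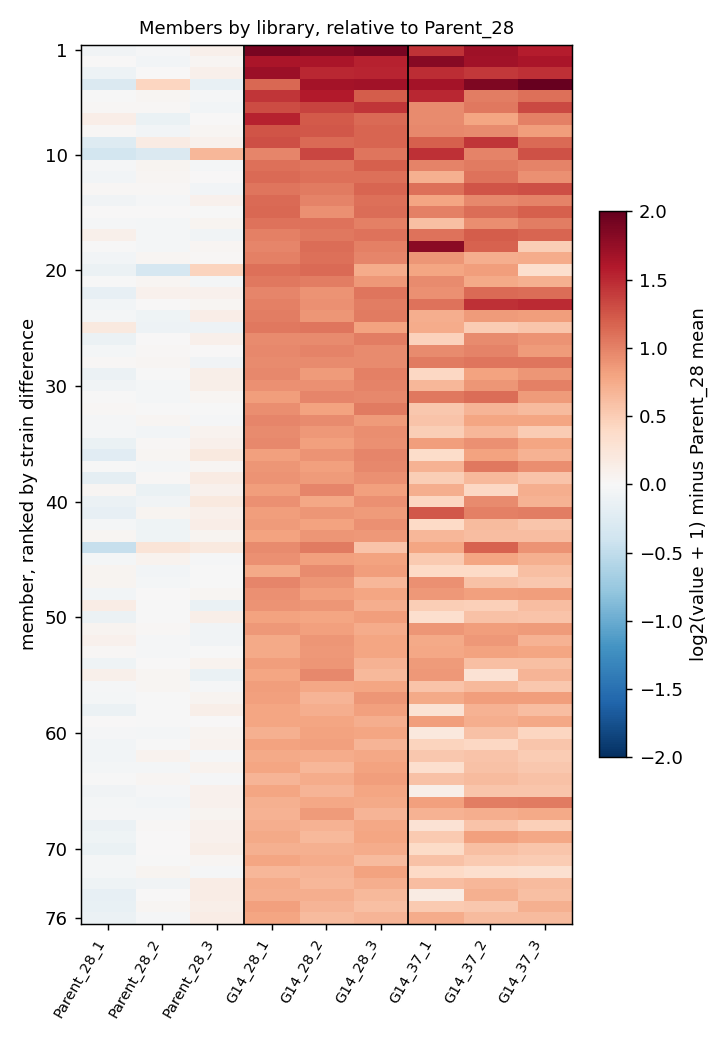
Each row is 1 of the 76 members, ranked by strain difference, and each column is 1 of the 9 libraries. Colour gives log2(value + 1) minus the Parent_28 mean of that member. The G14_28 columns are red throughout, and the G14_37 columns range from dark red to nearly white, with more variation between libraries.

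Locus tag CHR3-2810, on chromosome 3 and with a coding length of 3645 bases, had the largest strain difference. Its values were 49.1, 50.6 and 55.3 in Parent_28, 195, 186 and 196 in G14_28, and 142, 169 and 155 in G14_37. The 3 groups did not overlap, with G14_37 in between. The mean was 51.7 ± 3.21 in Parent_28, 192 ± 5.31 in G14_28 and 155 ± 13.3 in G14_37 (SD, n = 3 each), that is, 3.72-fold and 3.00-fold above the parent. Its temperature difference was -0.31, and between 2199 and 10526 reads per library were behind these values.

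The member of rank 2 lies on chromosome 3 as well, with a coding length of 1311 bases. It had values of 24.0, 22.9 and 24.5 in Parent_28, 75.9, 75.7 and 70.8 in G14_28, and 86.4, 78.3 and 76.4 in G14_37. Here the 37 °C values lay above those at 28 °C, without overlap, and the level in G14_37 was 3.37-fold that of Parent_28 (3.11-fold in G14_28). The member of rank 3, on chromosome 2 and 4893 bases long, had 44.6, 48.1 and 51.5 in Parent_28, 159, 138 and 140.1 in G14_28, and 136, 129 and 134 in G14_37. In this member, G14_37 was 0.915 times G14_28 without overlap, and both groups of the mutant lay far above the parent relative to the spread between replicates.

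The member of rank 4, on chromosome 1 and 696 bases long, had the largest temperature difference of the set, 0.38. Its values were 5.501, 9.68 and 6.14 in Parent_28, 16.6, 24.0 and 24.4 in G14_28, and 24.2, 27.8 and 32.9 in G14_37. The mutant values at both temperatures overlapped, and the fold over the parent went from 3.05 in G14_28 to 3.98 in G14_37, the highest of the members at 37 °C. It had 47 to 82 reads per library in the parent, so its fold is less precise than that of the members above. The shorter member of rank 5, with 261 bases on chromosome 3, had 145, 150.5 and 144 in Parent_28, 398, 442 and 342 in G14_28, and 418, 298 and 315 in G14_37. The mutant values overlapped between the temperatures, and G14_37 replicate 1 was the highest at 37 °C.

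The member of rank 6, on chromosome 3, had values of 72.2, 72.0 and 67.9 in Parent_28, 176, 182 and 191 in G14_28, and 137, 149 and 178 in G14_37. The member of rank 7, on chromosome 1, had 229, 189 and 210.4 in Parent_28, 611, 488 and 459 in G14_28, and 403, 361 and 419 in G14_37. In rank 6 the mutant values at 28 °C and 37 °C overlapped. In rank 7 they did not, and its temperature difference of -0.39 was the lowest of the members. The member of rank 8, also on chromosome 1, had 221, 209 and 225 in Parent_28, 524, 519 and 493 in G14_28, and 424, 420.1 and 389 in G14_37, a fold over the parent of 2.35 at 28 °C and 1.88 at 37 °C. The members of ranks 9 and 10 are short, with 213 bases on chromosome 2 and 246 bases on chromosome 4. Rank 9 had a mean of 20.4 ± 3.15 in Parent_28, 47.7 ± 2.99 in G14_28 and 49.8 ± 5.67 in G14_37 (SD, n = 3 each). Rank 10 had 5.30, 5.68 and 11.9 in Parent_28 and 15.1, 19.6 and 16.1 in G14_28, from as few as 16 reads in a library, and the parent value of 11.9 lay closer to the mutant than to the other parent values.

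**Figure D3:**
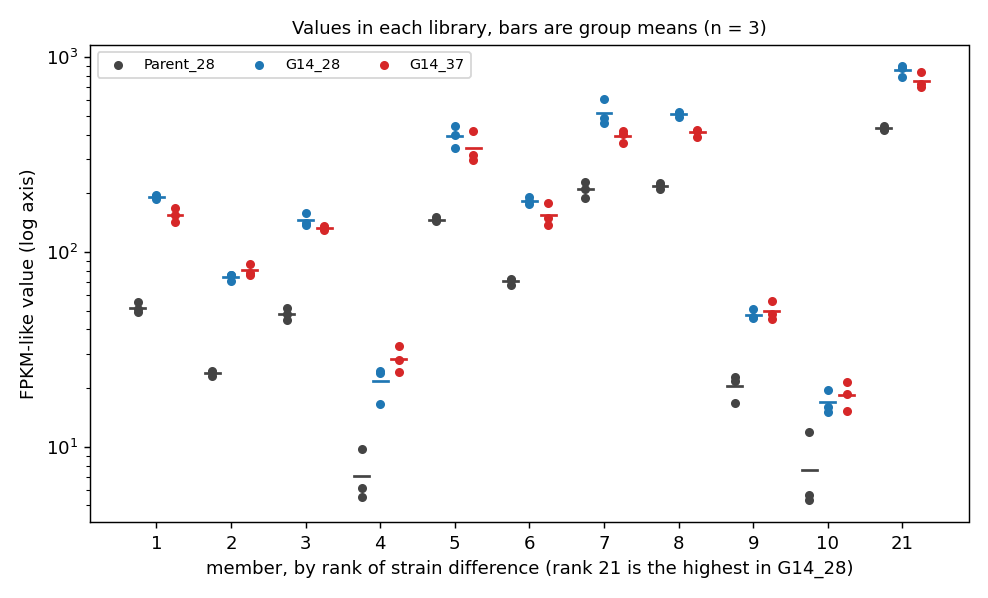
Values of the members of ranks 1 to 10 and 21 in each library on a log axis, with Parent_28 in grey, G14_28 in blue and G14_37 in red, where each point is a library and each bar a group mean (n = 3). The parent points lie below the mutant points of both temperatures in each of these members, and rank 10 has the widest parent spread on the log axis.

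Locus tag CHR3-2722, on chromosome 3 with a coding length of 600 bases, had the highest level of the set in G14_28 and is rank 21 by strain difference. Its values were 429.7, 444 and 422 in Parent_28, 897, 880.2 and 792 in G14_28, and 836, 727 and 705 in G14_37. The mean was 432 ± 10.8, 857 ± 56.5 and 756 ± 70.6 in this order (SD, n = 3 each), 1.98-fold above the parent at 28 °C and 1.75-fold at 37 °C. The mutant values of both temperatures overlapped. The levels of the other members next in order were lower, with G14_28 means of 519 (rank 7), 512 (rank 8), 409.7 (rank 54), 394 (rank 5) and 366 (rank 47). Neighbours in this order, ranks 7 and 8 and ranks 54 and 5, differed by less than the spread of their replicates.

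The members as a whole had moderate levels. Their Parent_28 mean had a median of 48.3 (range 6.67 to 432), while the median over tags with a mean of at least 5 was 70.2. In G14_28, the median of the members was 86.3 and that of the tags 69.5. The set thus lay below the median gene in the parent and above it in the mutant, which the choice of members by this rise favours. In G14_28, 5 members had a mean under 25, 14 one from 25 to 50, 25 from 50 to 100, 22 from 100 to 200, and 10 above 200. In 52 of the 76 members, each of the 9 libraries held at least 500 reads, and 6 members had under 50 reads in some library. Those 6 are ranks 4, 9, 10, 18, 20 and 44.

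The temperature difference depends on how the libraries are scaled. The depth that the deposited values were divided by was between 0.874 and 0.925 of the recovered reads at 28 °C, and between 1.15 and 1.23 of them at 37 °C. When the recovered total of each library was used as its depth instead, the median temperature difference of all tested genes moved from -0.025 to 0.36, and that of the members from -0.18 to 0.21. Relative to the median of all tested genes, the members were at -0.16 with the deposited values and at -0.15 with summed reads. Under the summed reads, 58 of the 76 members stayed inside the limit of 0.4 and 18 were above it. The G14_37 level was above Parent_28 in all 76 under both scalings, which the rule fixes with the deposited values. Summed reads raised the median of G14_37 minus Parent_28 over all tested genes from -0.032 to 0.40. This count is therefore no check of the scaling. The strain difference was less dependent, with a median of 0.88 and 0.93.

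Within the limit set by the rule, the direction at 37 °C depended on the scaling. With the deposited values, the temperature difference was below 0 in 57 members and above 0 in 19, with a median of -0.18 and quartiles of -0.26 and 0.00047, while with the recovered totals it was above 0 in all 76. Of the tags with a mean of at least 5, 51.7% were below 0 with the deposited values. The same G14_28 libraries enter the strain difference and the temperature difference, so these counts are not independent of the choice of members. Between -0.1 and 0.1 there were 18 members, and 15 lay below -0.3. In 35 members, all G14_37 values were below all G14_28 values, against 38.4% of tested genes, and in 5 members all were above, against 35.1%. The other 36 had overlapping values. By limma, 28 members had an adjusted p under 0.05 with a lower level at 37 °C (36.2% of tested genes) and 3 with a higher level (33.2%). With the recovered totals these counts turned, as 0 members were lower and 38 higher without overlap (17.2% and 62.6% of tested genes), and 0 were lower and 40 higher by limma at an adjusted p under 0.05 (16.3% and 62.2%). No member was called by limma at an adjusted p under 0.05 with a log2 difference above 1 in size, under either scaling. With the deposited values, 3.96% of tested genes were called higher in this way and 7.05% lower. With the recovered totals, 596 of 5458 tested genes (10.9%) were called higher and 174 lower. For the deposited values, the limit of 0.4, which 55.3% of tested genes meet, allows no such call at any p. Under summed reads the same limit, with a shift of 0.39 in the median of all tested genes, leaves little room for one. The absence of calls among the members is thus no result under either scaling. "Kept" therefore stands for a difference under the limit and not for equal levels.

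The member nearest to equal levels is rank 48, on chromosome 3 and 774 bases long, with a temperature difference of -0.00032. Its values were 72.3, 75.996 and 77.5 in Parent_28, 143, 133 and 131 in G14_28, and 139, 133 and 135 in G14_37. The member of rank 59, on chromosome 1, followed with 52.3, 51.7 and 52.2 in Parent_28, 91.0, 90.9 and 87.0 in G14_28, and 93.5, 86.4 and 89.6 in G14_37. In both, the mutant values of the 2 temperatures overlapped, and the parent values stood apart from all 6 mutant libraries. The 5 members whose 37 °C values were all above those at 28 °C were ranks 2, 23, 28, 41 and 66. Of these, rank 23 on chromosome 2 had the largest step, from 50.1, 47.2 and 50.8 in G14_28 to 52.9, 69.5 and 70.7 in G14_37, with 23.5, 24.7 and 25.2 in Parent_28. Rank 28, also on chromosome 2, had the tightest replicates among them, with 116, 115 and 115 in G14_28 and 122.8, 125 and 126 in G14_37.

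The libraries at 37 °C did not give the same picture of the set. The median of the members relative to the G14_28 mean was -0.19 in G14_37 replicate 1, -0.12 in replicate 2 and -0.13 in replicate 3. In replicate 1, 57 of the 76 members were within 0.4 of the G14_28 mean, while 70 were in replicate 2 and 69 in replicate 3, and 49 members were within it in each of the 3 libraries. Replicate 1 held the lowest of the 37 °C values for 42 members (55.3%), against 38.4% of tags with a mean of at least 5. Without this library, the median temperature difference of the members was -0.11 in place of -0.18, that of all tested genes was -0.028, and 71 of the 76 members stayed inside 0.4. The spread between replicates of the members, as the median SD of log2(value + 1), was 0.074 in Parent_28, 0.070 in G14_28 and 0.119 in G14_37, and 0.059, 0.068 and 0.090 over tags with a mean of at least 5. The widest spread at 37 °C on the log2 scale was seen in rank 18, on chromosome 3, with 29.1, 18.5 and 11.1 in G14_37, where G14_28 had 16.03, 17.8 and 16.4 and Parent_28 had 7.62, 7.45 and 7.84.

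**Figure D4:**
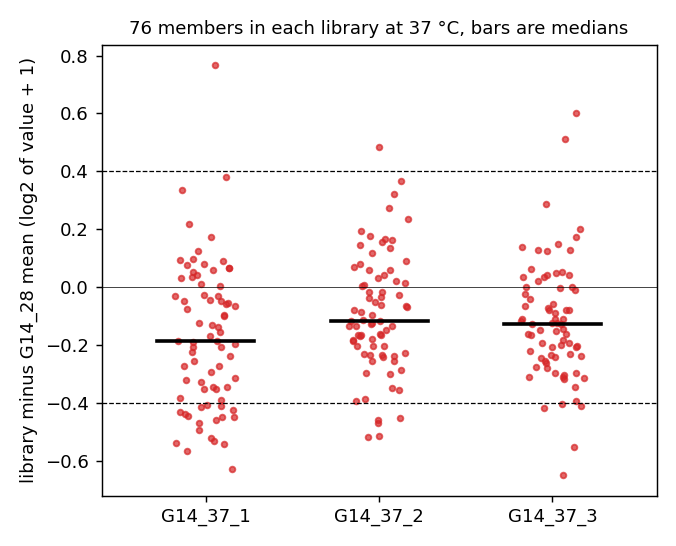
Each point is 1 of the 76 members in 1 of the G14_37 libraries, as log2(value + 1) minus the G14_28 mean of that member, with the median as a bar and the limits of 0.4 as dashed lines. The medians are -0.19, -0.12 and -0.13, and 19 members of replicate 1 lie outside the limits against 6 and 7 in replicates 2 and 3.

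With the deposited values, the 183 tags that were higher in the mutant at 28 °C by the same conditions split unevenly at 37 °C. Besides the 76 members, 92 tags were lower at 37 °C than in G14_28 by at least 0.4, and 15 were higher by at least 0.4. This split depends on the scaling. Summed reads moved the median temperature difference of all tested genes up by 0.39 and put 18 members above 0.4. The 92 and the 15 were not counted again under that scaling. The median strain difference was 0.88 for the members, 0.90 for the 92 and 0.85 for the 15, where all 3 sets share the lower limit of 0.7. Higher up the sets differed. The upper quartiles were 1.001, 1.28 and 0.93, and the largest strain differences were 1.88, 2.57 and 4.56, in this order. At 37 °C the fold over Parent_28 in the deposited values was 1.72 at the median for the members, 1.004 for the 92 and 2.79 for the 15. The definitions favour this order. They do not fix the value of the 92, whose fold ranged from 0.149 to 8.14. The median coding length, which the rule did not use, was 1548 bases for the members (quartiles 797 and 2273), 947 for the 92 and 1407 for the 15, and the median over tags with a mean of at least 5 was 1161. Members of at least 2000 bases made up 30.3% of the set, against 19.4% of those tags, and members of at least 3000 bases 13.2% against 6.69%. The median Parent_28 level, which enters the rule, was 48.3 for the members, 75.9 for the 92 and 45.9 for the 15. These are descriptions of genes within the same libraries, with no test.

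The members were spread over all chromosomes, with 23 on chromosome 1, 18 on chromosome 2, 18 on chromosome 3 and 17 on chromosome 4. This is 1.39%, 1.32%, 1.39% and 1.60% of the tags with a mean of at least 5 on each, close to the 1.42% over all 4. The rule shapes this evenness, as the stretches it left out lie on chromosomes 3 and 4 only. Tags inside them that met all other conditions numbered 18 and 1 on chromosome 3 and 11 on chromosome 4. The shares count the tags of these stretches in the total but none of them as a member. Next to the members in the order of tag numbers were 134 tags with a mean of at least 5 that are not members. The median strain difference of these neighbours was 0.035, with quartiles of -0.19 and 0.31, and 55.2% were above 0, against 45.2% of tags with a mean of at least 5. Neighbours that are members themselves were left out of these tags, which lowers the values. The values therefore do not show how often a rise is shared with an adjacent tag. The order of tag numbers was not checked against genome coordinates.

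In 12 members, the next tag in order was also a member. Adjacent numbers were found 3 times. On chromosome 1, rank 31 (Parent_28 mean 40.9, G14_28 mean 78.9, G14_37 mean 83.6) is next to rank 8 described above. In another place on chromosome 1, rank 56 had means of 41.6, 73.0 and 63.0 in Parent_28, G14_28 and G14_37, and its neighbour, rank 11, had 87.2, 191 and 176. On chromosome 4, rank 71 had means of 121, 201 and 177, and its neighbour, rank 43, had 12.4, 23.2 and 19.7. The levels within each pair differed, while the strain differences were 0.93 and 1.23, 0.80 and 1.12, and 0.72 and 0.85. Rank 51 lies a few numbers beyond rank 11, and the 4 tags between them also had positive strain differences, from 0.31 to 0.68. In the other close pairs the tags between went both ways, from -0.51 to 0.098 between ranks 47 and 20 on chromosome 1 and from -0.37 to 0.27 between ranks 54 and 74 on chromosome 2.

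The other 6 members with an adjacent member belong to the end of the numbering of chromosome 3. Numbers at the high end of each chromosome are widely spaced, with at least 5 numbers to the nearest tag, and 490 tags with a mean of at least 5 are of this kind. They gave 13 members (2.65%), against 63 (1.29%) of the 4878 closely numbered tags. Of the 13, 7 lie on chromosome 3, 3 on chromosome 2, 3 on chromosome 4 and 0 on chromosome 1, which has 151 such tags. All 7 of chromosome 3 are among its 13 highest-numbered tags, and they include both members printed by their tag as well as ranks 2, 5, 13, 41 and 48. In 12 of these 13 tags, the G14_28 values were all above the Parent_28 values (32.2% of tested genes), and the median strain difference was 0.87, with a range from -0.099 to 1.88. The rule fixed this for the 7 members, and among the 6 others it held for 5, with strain differences from -0.099 to 0.92 and a median of 0.54. At 37 °C, the median difference from G14_28 over the 13 tags was -0.00032. Of the 6 that are not members, the first in order had a mean of 58.6 in Parent_28, 112 in G14_28 and 280.1 in G14_37, and the second had means of 64.6, 119 and 81.4. The last in order showed no higher level in the mutant, with means of 99.5, 91.3 and 89.2. This stretch was singled out after its values were seen.

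**Figure D5:**
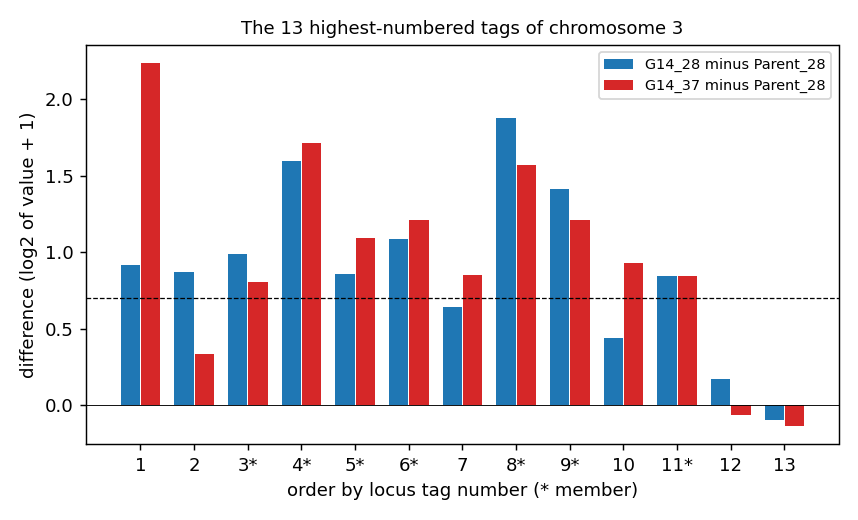
Differences from the Parent_28 mean in log2(value + 1) for G14_28 (blue) and G14_37 (red), for the 13 highest-numbered tags of chromosome 3 in the order of their numbers, with members marked by an asterisk and the limit of 0.7 dashed. In 11 consecutive tags both bars are above 0, and the last tag is below 0 in both.

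At the limits of the rule, the members passed into the rest of the genes without a gap. The member with the smallest strain difference, on chromosome 4, had means of 24.7 in Parent_28, 40.7 in G14_28 and 39.8 in G14_37 and a strain difference of 0.70199, and the nearest tag outside, on chromosome 4 as well, had 36.1, 59.1 and 66.0 and 0.69967. At the lower limit of the temperature difference, rank 7 was just inside with -0.388, and a tag of chromosome 3 was just outside with -0.409 and means of 13.9, 23.5 and 17.4. At the upper limit, rank 4 was just inside with 0.381, and a tag of chromosome 1 with 0.421 and means of 45.9, 86.6 and 116 was just outside. The condition on overlap and the limit of 5 on the mean removed no tag that met the others, and the lowest highest group mean of a member was 13.97. When the rule was applied with 1 library left out in turn, 55 of the 76 members were found every time.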

How the data were processed

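RNA-seq of 9 libraries was analysed, 3 each of Parent_28, G14_28 and G14_37. Per the labels, the submitters' processing notes name CASAVA, HISAT2 2.0.5 and featureCounts 1.5.0-p3. The genome build and annotation version are not given in the sources used here. The authors deposited 1 table in a unit it does not name, and its values behave as FPKM, made by the authors from reads per gene with a scaled library size, as judged from the numbers. Reads and lengths were recovered by searching, per gene, for the shortest length up to 20000 bases that puts the reads of all libraries within 0.001 (low values) to 0.05 (high values) of a whole number. The recovery and the test were tried on simulated data.

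Groups were compared with limma 3.58.1 in R 4.3.3 (intensity trend) on log2(FPKM + 1), with the compared groups only, for genes with a mean of at least 1 in one of them, and Benjamini-Hochberg adjustment over all tested genes. Because of the pseudocount, differences of weakly expressed genes come out too small. Means of 3 libraries are given with SD. Read numbers given beside the values speak to the counting error only and not to the further variation between replicates. The members, the lists and the tests were chosen with earlier results of these data known. Named members were the 10 with the largest strain difference, the 5 with the highest G14_28 level, the one with the smallest temperature difference, any run of at least 3 members with tag numbers at most 3 apart (none was found), and those next to a limit. The other members described were picked after their values were seen. Alternatives were a pseudocount of 0.1, median centring, no filter, one fit of all groups, a replicate block, other limits, each library left out and, chosen after seeing the data, scaling to summed reads. The planned counts of antioxidant, methanol, ergosterol, heat shock and MAPK genes were not made, as tags had no gene names. Python 3.11.15, numpy 2.4.6, pandas 2.3.3 and matplotlib 3.10.9 were used.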

Additional observations from a re-analysis of the deposited data

How the results depend on the processing

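The number of members was 76, and it was 19 with a strain difference of at least 1, 38 with a temperature difference under 0.2, 83 with a pseudocount of 0.1, 79 with median centring, 106 with the 3 stretches kept in, and 71 to 90 with each library left out. The stricter limits can only remove members, and keeping the stretches can only add them. With values scaled to summed reads, an alternative chosen after seeing the data, 111 tags met the rule, of which 58 were among the 76. The median strain difference of the members was 0.87 to 0.92 with each library left out and 0.93 with summed reads. Their median temperature difference was -0.19 to -0.11 with each library left out, and with summed reads it turned from -0.18 to 0.21, as that scaling moved the median of all tested genes by 0.39. Genes called higher in G14_28 than in Parent_28 numbered 96 (92 to 105 with a library left out, 1615 by an adjusted p alone). Genes that differed between G14_37 and G14_28 numbered 601 (587 to 613, and 3787 by an adjusted p alone), with 35.9% higher, and 77.4% higher of 770 with summed reads. Genes higher in G14_37 than in Parent_28 numbered 209 (202 to 213, 1805 by an adjusted p alone, and 668 with summed reads), with 31.1% higher of all genes called in either direction, and 76.96% with summed reads. With the replicate block these counts were 97, 604 and 208. Same-numbered libraries deviated together with correlations from -0.13 to 0.25 only, so the block was not taken as a pairing. The strain difference of CHR3-2810 stayed from 1.84 to 1.92 and that of CHR3-2722 from 0.95 to 1.04 with each library left out. Depth limits the 6 members with under 50 reads in a library.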
